A study of Mus musculus with 12 samples.

Results

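The genes described here encode 10 enzymes of amino acid (mainly tryptophan and arginine) and NAD metabolism in dendritic cells (DCs) and macrophages: *Ido1*, *Ido2*, *Kmo*, *Kynu*, *Arg1*, *Arg2*, *Nos2*, *Ass1*, *Il4i1* and *Cd38*. They were chosen by name, and every probe whose accession in the scanner files leads to 1 of these symbols was read. This gave 13 of 56605 probes and 10 of 24232 named genes, with 2 probes each for *Ido2*, *Kmo* and *Kynu* and 1 for every other gene. Where a gene had 2 probes, the one with the higher mean over all arrays was used and the other is given beside it.

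The study hybridised RNA to mouse arrays of a single colour. There were 12 arrays, with replicates A, B and C in each of 4 groups. All cells were grown from bone marrow with GM-CSF at 2 ng/ml and IL-4 at 4 ng/ml, harvested on day 7 and given LPS, a bacterial product that drives DCs to mature, at 1 μg/ml for 24 h, so that no group lacks IL-4 or LPS. The question was how age, loss of gut bacteria and a probiotic given to old mice alter such DCs. Young DCs came from mice of 2 months. Young-Abx DCs came from mice of 2 months that drank ampicillin, neomycin, metronidazole and vancomycin. Old DCs came from mice of 24 months, and Old-LP DCs from mice of 24 months given *Lactobacillus plantarum*. The mice were female C57BL/6, and RNA was pooled from 3 animals at a time. The loosely adherent cells were taken without a sort, so for every value below fewer cells of a type and less RNA per cell cannot be told apart.

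The arrays lay on 3 slides. Slide 1 held A and B of every group, slide 2 held C of Young and Young-Abx, and slide 3 held C of Old and Old-LP. The C arrays were dimmer and so less reliable for dim genes, with 37.3 to 46.0% of their spots well above background, as against 61.2 to 66.4% on A and B. Over the 10 genes and 4 groups, A and B of a group differed by 0.00169 to 0.537 on the log2 scale (median 0.0915), while C lay between 4.05 below and 1.91 above the mean of A and B (median 0.846 above). The study describes the replicates of a group as independent sets of animals. Of the 12 listed DC markers, 10 were well above background on all arrays, among them *Itgax*, *H2-Ab1*, *Cd74* and *Ccr7*. The same held for 11 of 12 macrophage, 9 of 10 mast cell and basophil, 9 of 11 neutrophil and 6 of 7 T cell markers. It held for 5 of 7 B cell, 4 of 6 NK cell and 4 of 7 eosinophil markers. Of the megakaryocyte and erythroid list it held for 9 of 13, and of the stromal list for 1 of 8. Detection alone therefore does not set DCs apart from other cells here.

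IDO1 and IDO2 open the ring of tryptophan and start the kynurenine pathway, KMO hydroxylates kynurenine, and KYNU cleaves its products on the route that ends in NAD. ARG1 and ARG2 split arginine into ornithine and urea, NOS2 turns the same arginine into nitric oxide and citrulline, and ASS1 begins the rebuilding of arginine from citrulline. IL4I1 is a secreted oxidase of amino acids such as phenylalanine, and CD38 splits NAD at the cell surface. In DCs and macrophages, interferon-γ and LPS are classical inducers of *Ido1* and *Nos2*, and IL-4 is the classical inducer of *Arg1*. Depletion of tryptophan by IDO1 or of arginine by ARG1 is a known brake on T cells.

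The RefSeq promoter table (build GRCm38.p6) held 4 of the genes, *Kmo*, *Ass1*, *Cd38* and *Il4i1*. *Kmo* and *Ass1* are shown because they moved in opposite directions between the groups, as described below. The 250 bases before the start of each gene are printed 5′ to 3′, at chr1:175631943-175632192 (plus strand) for *Kmo* and chr2:31470020-31470269 (plus strand) for *Ass1*. Capitals mark GAGGAAGT, the core of sites for ETS factors, and GGGCGG, a GC box.
Kmo: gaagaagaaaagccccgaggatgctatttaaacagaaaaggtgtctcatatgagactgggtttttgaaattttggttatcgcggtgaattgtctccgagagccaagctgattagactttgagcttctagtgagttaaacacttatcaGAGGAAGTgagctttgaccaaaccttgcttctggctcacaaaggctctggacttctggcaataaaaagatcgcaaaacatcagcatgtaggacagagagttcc
Ass1: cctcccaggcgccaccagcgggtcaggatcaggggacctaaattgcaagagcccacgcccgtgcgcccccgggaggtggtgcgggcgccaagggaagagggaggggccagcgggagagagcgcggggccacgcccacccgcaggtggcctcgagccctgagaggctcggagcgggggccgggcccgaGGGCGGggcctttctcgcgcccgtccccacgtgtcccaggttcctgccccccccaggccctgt
The *Kmo* window had 42.8% G and C with 5 CG pairs, and the *Ass1* window 75.6% with 23. Searched on both strands, the windows of all 4 genes held no GGANTNTCC (NF-κB-like, found in 3.16% of 32851 promoters), no GAAANNGAA (interferon response element-like, 7.13%) and no TTCNNNGAA (STAT-like, 7.02%). GAGGAAGT stood in the *Kmo* and *Il4i1* windows and in 2.44% of all promoters, and GGGCGG in the *Ass1* and *Il4i1* windows and in 32.7%. These last 2 motifs were picked after the sequences were read. The array measures RNA only, and no binding was measured.

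Levels are given as log2 intensity after quantile normalization, which sets all arrays to the same distribution. A gene was called changed at an adjusted p of at most 0.05 (Benjamini-Hochberg over all probes, limma) and an absolute log2 difference of at least 0.5. By this rule 0 of 10 genes changed in any of the 6 comparisons. The share of all 56605 probes called was 0.620% in Old against Young, 0.344% in Young-Abx against Young, 0.348% in Old-LP against Old, 0% in Old-LP against Young, 0.00177% in Old against Young-Abx and 0.163% in Old-LP against Young-Abx. These shares moved with single arrays. The 351 probes called in Old against Young became 113 without array A of Young and 590 without array C of Old, and the 197 in Old-LP against Old became 26 without array B of Old and 416 without array C of Old. With unadjusted p at 0.05 and the same difference, 2 of 10 passed in Old against Young (6.00% of all probes) and 2 of 10 in Old-LP against Old (5.79%). These were *Kmo* and *Kynu* both times, while 0 of 10 passed in the other 4 comparisons. Of all 56605 probes, 2181 passed in Young-Abx against Young and 632 in Old-LP against Young. In Old against Young-Abx 864 passed, and in Old-LP against Young-Abx 1869. The groups did not overlap for 2 of 10 genes in Old against Young (*Ido2* and *Kynu*, with 9.65% of all probes), 1 of 10 in Young-Abx against Young (*Kynu*, 9.86%) and 2 of 10 in Old-LP against Old (*Ido2* and *Kynu*, 9.38%). Old against Young and Old-LP against Old share the Old arrays, so their opposite signs are not independent.

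The letter C set the arrays apart in most of these genes, and the fit was therefore repeated with the replicate letter as a block. *Kmo* and *Kynu* then passed, lower in Old than in Young (2 of 10 genes, against 2.18% of probes) and higher in Old-LP than in Old (2 of 10, against 1.65%). With the slide as a block *Ass1* was added in both comparisons, in the opposite direction, giving 3 of 10 in Old against Young (2.70% of probes) and 3 of 10 in Old-LP against Old (3.29%). On slide 1 alone, a fit added after the data were seen, 4 of 10 passed in Old against Young (8.74%), 3 of 10 in Young-Abx against Young (5.72%), 4 of 10 in Old-LP against Old (7.77%) and 2 of 10 in Old-LP against Young-Abx (4.42%). *Kmo*, *Kynu*, *Arg2* and *Ass1* were the genes that passed in Old against Young and in Old-LP against Old, *Kmo*, *Arg2* and *Ass1* those in Young-Abx against Young, and *Kmo* and *Arg2* those in Old-LP against Young-Abx. That fit rests on 2 arrays a group, whose small differences are given above. For *Kmo*, *Kynu*, *Ido1*, *Ido2* and *Ass1* the A and B arrays and the C arrays gave the same sign in Old against Young, in Young-Abx against Young and in Old-LP against Old. The C arrays of Old and Young lay on different slides. Every Old against Young value on C, here and below, therefore cannot be told apart from a difference between slides.

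**Figure D1:**
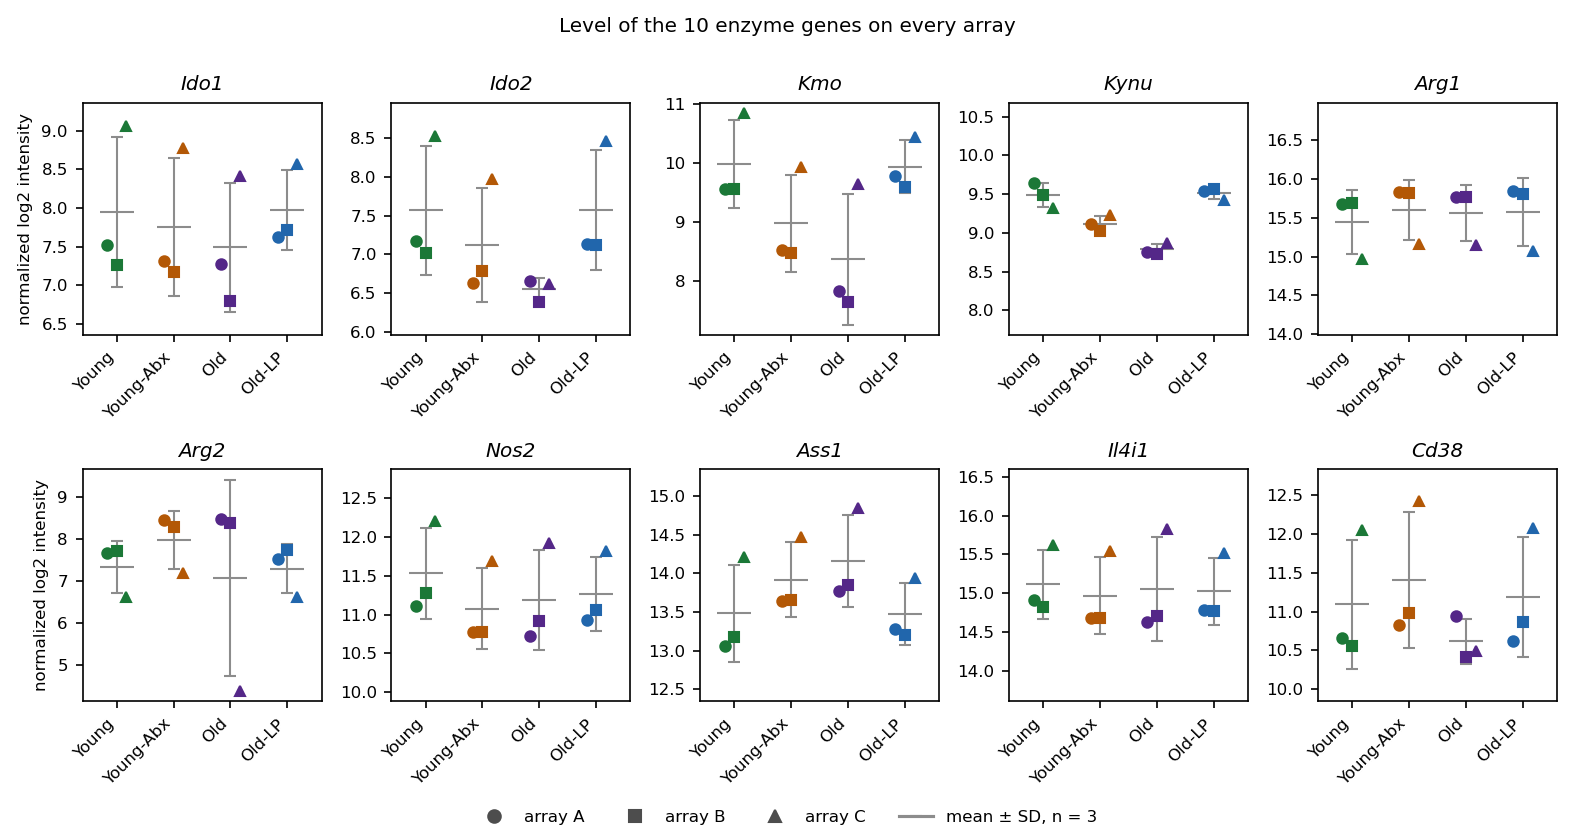
Normalized log2 intensity of each gene at its brighter probe (vertical axis, range set per gene) in the 4 groups (horizontal axis). Circles, squares and triangles are arrays A, B and C, and bars are the mean ± SD of 3 arrays. *Kynu* lay at 8.73 to 8.87 on the Old arrays and at 9.32 to 9.64 on the Young arrays, and the C array of Old stood at 4.37 for *Arg2*.

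Of the tryptophan enzymes, *Kmo* had the largest differences. On arrays A, B and C its level was 9.55, 9.56 and 10.84 in Young, 8.52, 8.48 and 9.93 in Young-Abx, 7.82, 7.64 and 9.64 in Old, and 9.78, 9.59 and 10.45 in Old-LP. Within each letter Old was the lowest group and Young-Abx the next, but the ranges of Old and Young overlapped because C was higher than A and B in every group. The order of the means was Young (9.99 ± 0.74, SD, n = 3), Old-LP (9.94 ± 0.45), Young-Abx (8.97 ± 0.83) and Old (8.37 ± 1.11), and the ranges of each neighbouring pair overlapped. Old was 1.62 lower than Young in log2 units (log2 difference -1.62, SE 0.62, 3.07-fold), with an adjusted p of 0.621 that became 0.0119 with the replicate letter as a block and 0.0154 with the slide as a block. The difference was -1.83 on A and B and -1.20 on C.

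In Old-LP *Kmo* was 1.57 higher than in Old (SE 0.62, 2.98-fold, adjusted p 0.727, or 0.0172 with the letter and 0.0101 with the slide as a block). The difference was 1.96 on A and B and 0.80 on C. Without the C array of Old, the differences were -2.25 against Young and 2.20 for Old-LP against Old, with adjusted p of 0.140 and 0.171. Young-Abx was 1.01 lower than Young (adjusted p 1, or 0.120 with the letter as a block). The dimmer *Kmo* probe gave -1.53 in Old against Young and 1.24 in Old-LP against Old, with an adjusted p of 0.182 and 0.310 with the letter as a block, so the call rests on the brighter probe. On the C arrays that dimmer probe had the opposite sign in Old-LP against Old, at -0.32, against 2.02 on A and B.

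*Kynu* had the smallest spread among replicates of the tryptophan enzymes. Its level on A, B and C was 9.64, 9.49 and 9.32 in Young, 9.11, 9.02 and 9.22 in Young-Abx, 8.76, 8.73 and 8.87 in Old, and 9.54, 9.57 and 9.43 in Old-LP. All 3 Old arrays lay below all other arrays, all 3 Young-Abx arrays lay between those of Old and those of Young and Old-LP, and Young and Old-LP overlapped. Old was lower than Young by a log2 difference of -0.70 (SE 0.19, 1.62-fold, adjusted p 0.242, or 0.0484 with the letter and 0.0475 with the slide as a block). Old-LP was higher than Old by 0.73 (SE 0.19, 1.66-fold, adjusted p 0.256, or 0.0496 with the letter and 0.0256 with the slide as a block). The same comparisons gave -0.82 and 0.81 on A and B and -0.46 and 0.56 on C.

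The other *Kynu* probe, which reads a different transcript accession of the gene, gave a log2 difference of -0.79 in Old against Young (adjusted p 0.217, 0.0290 with the letter as a block) and 0.76 in Old-LP against Old (adjusted p 0.304, 0.0419 with the letter as a block). It also had no overlap between Young-Abx (7.56 to 7.77) and Young (8.16 to 8.48), a log2 difference of -0.62 with an adjusted p of 0.737, or 0.119 with the letter as a block. At the brighter probe that difference was -0.37 (adjusted p 1). *Kynu* also passed both thresholds when the background was corrected with normexp (adjusted p 0.0227 in Old against Young and 0.0196 in Old-LP against Old) and in the log2 table of the authors (0.0338 and 0.0298). It did not pass with a shift by the 75th percentile (0.658 and 0.73) or when the compared groups were fitted alone (0.867 and 0.989). Nor did it pass with both probes averaged (0.063 and 0.074) or with any array left out.

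**Figure D2:**
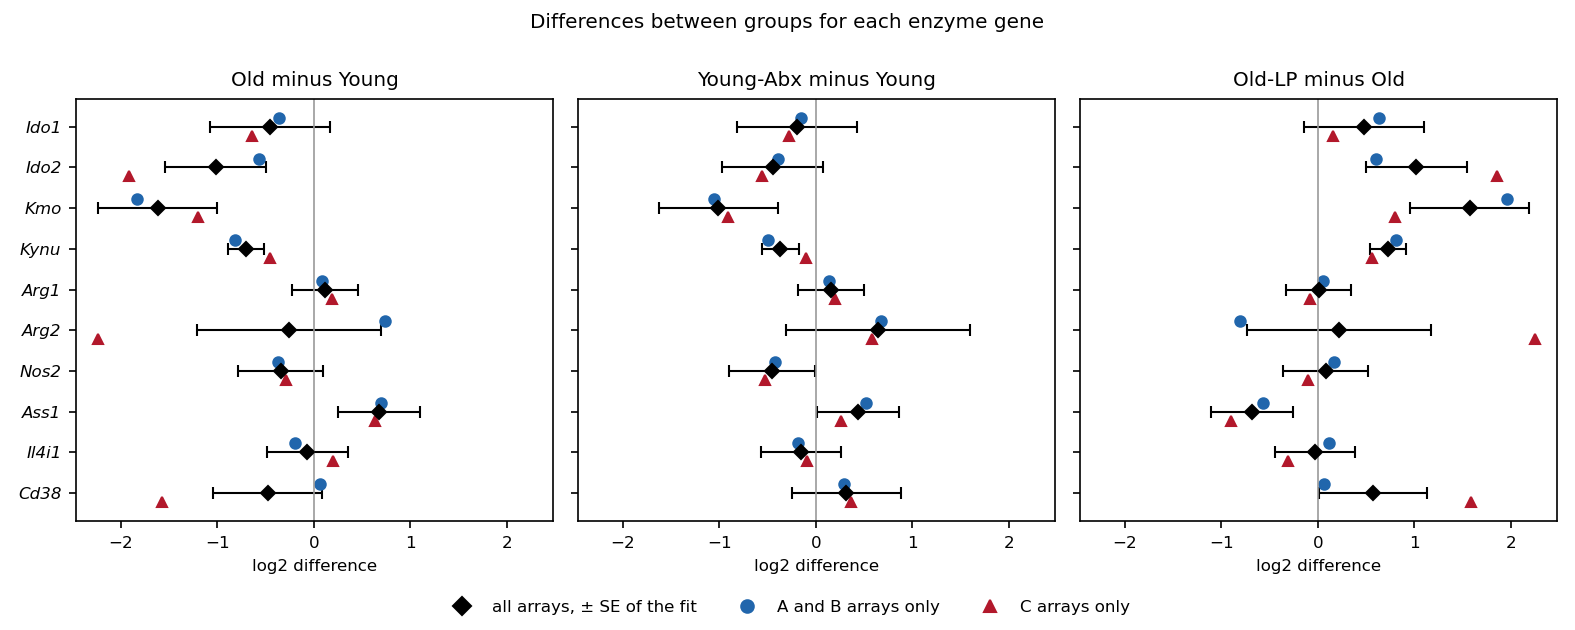
Log2 difference (horizontal axis) for each gene (vertical axis) in Old minus Young, Young-Abx minus Young and Old-LP minus Old. Diamonds with bars are the difference over all arrays ± SE of the limma fit, circles the A and B arrays alone and triangles the C arrays alone. The 3 marks lie on the same side of zero for *Kmo* and *Kynu* in each panel, and on opposite sides for *Arg2* in Old minus Young (0.74 on A and B, -2.24 on C). In Old minus Young the C arrays lay on different slides.

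*Ido1*, the interferon-inducible enzyme that opens the pathway, did not pass under any block. It lay at 7.53, 7.26 and 9.05 on A, B and C of Young, 7.32, 7.17 and 8.77 of Young-Abx, 7.28, 6.80 and 8.42 of Old, and 7.63, 7.71 and 8.57 of Old-LP. Every group overlapped every other. The log2 difference was -0.45 in Old against Young (SE 0.62, adjusted p 1, or 0.391 with the letter as a block) and 0.48 in Old-LP against Old (SE 0.62, adjusted p 1, or 0.373 with the letter as a block).

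*Ido2* encodes the related enzyme of lower activity, and it neighbours *Ido1* in the genome. Its brighter probe lay at 7.17, 7.02 and 8.53 in Young, 6.63, 6.78 and 7.97 in Young-Abx, 6.66, 6.39 and 6.61 in Old, and 7.13, 7.12 and 8.47 in Old-LP. The C array exceeded the mean of A and B by 1.27 to 1.44 in the other groups and by 0.09 in Old, where it was not well above background. Old did not overlap Young or Old-LP, with log2 differences of -1.02 (SE 0.52, adjusted p 0.962) and 1.02 for Old-LP against Old (SE 0.52, adjusted p 0.963). On A and B these were -0.57 and 0.60, and on C -1.92 and 1.85. With the letter as a block the adjusted p were 0.166 and 0.181. The other *Ido2* probe was well above background on 2 of 12 arrays, 1 of Young-Abx and 1 of Old-LP, and gives no comparison.

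Of the arginine enzymes, *Ass1* had the opposite direction to *Kmo* and *Kynu*. Its level on A, B and C was 13.06, 13.17 and 14.21 in Young, 13.64, 13.65 and 14.47 in Young-Abx, 13.78, 13.85 and 14.84 in Old, and 13.29, 13.20 and 13.94 in Old-LP. Within each letter Old was highest and Young-Abx next, while the ranges of all groups overlapped. The log2 difference was 0.67 in Old against Young (SE 0.42, 1.60-fold, adjusted p 1), which was 0.0528 with the letter and 0.0403 with the slide as a block. In Old-LP against Old it was -0.68 (SE 0.42, adjusted p 1), or 0.0603 with the letter and 0.0270 with the slide as a block. *Ass1* therefore passed with the slide as a block and missed the threshold with the letter. In Young-Abx against Young the difference was 0.44 (adjusted p 1, or 0.295 with the letter as a block).

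*Arg1*, the cytosolic arginase that IL-4 induces, differed little between the groups. It lay between 15.07 and 15.84 in Old-LP and between 15.15 and 15.78 in Old, as against 14.96 to 15.70 in Young and 15.16 to 15.83 in Young-Abx. C was lower than A and B in every group, by 0.63 to 0.76. The log2 differences were 0.12 in Old against Young, 0.16 in Young-Abx against Young and 0.01 in Old-LP against Old (SE 0.34 each, adjusted p 1 each). Within each letter Young was the lowest group.

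*Arg2*, the mitochondrial arginase, lay at 7.66, 7.72 and 6.61 in Young, 8.45, 8.28 and 7.19 in Young-Abx, 8.47, 8.38 and 4.37 in Old, and 7.51, 7.73 and 6.63 in Old-LP. On A and B it was higher in Old and Young-Abx than in Young and Old-LP, and the C array of Old, where the probe was not well above background, was the lowest of all. The log2 difference of Old against Young was -0.25 over all arrays (SE 0.95, adjusted p 1), 0.74 on A and B and -2.24 on C. For Old-LP against Old it was 0.22 over all arrays, -0.80 on A and B and 2.25 on C. The direction of *Arg2* was thus set by 1 array, and with the slide as a block it was 0.21 in Old against Young (adjusted p 0.926). On slide 1 alone the adjusted p were 0.0202 in Old against Young, 0.0365 in Young-Abx against Young and 0.0170 in Old-LP against Old.

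*Nos2*, the inducible nitric oxide synthase, was highest in Young within each letter, at 11.11, 11.28 and 12.21. It lay at 10.77, 10.78 and 11.69 in Young-Abx, 10.73, 10.92 and 11.92 in Old, and 10.92, 11.06 and 11.82 in Old-LP, and the ranges overlapped. The log2 difference was -0.34 in Old against Young, -0.45 in Young-Abx against Young and 0.08 in Old-LP against Old (SE 0.44 each, adjusted p 1 each). With the letter as a block the adjusted p were 0.293, 0.212 and 0.827.

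*Il4i1* and *Cd38* did not pass in any of the fits named above. *Il4i1* lay between 14.63 and 15.83 on all arrays, with group means of 15.12 ± 0.45 in Young, 14.97 ± 0.50 in Young-Abx, 15.05 ± 0.67 in Old and 15.02 ± 0.43 in Old-LP (SD, n = 3). *Cd38* lay at 10.66, 10.56 and 12.06 in Young, 10.83, 10.98 and 12.42 in Young-Abx, 10.95, 10.41 and 10.49 in Old, and 10.62, 10.86 and 12.08 in Old-LP. As for *Ido2*, the C array of Old did not share the higher value of the other C arrays. The log2 difference of *Cd38* in Old against Young was 0.07 on A and B and -1.57 on C, and in Old-LP against Old 0.06 and 1.59.

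**Figure D3:**
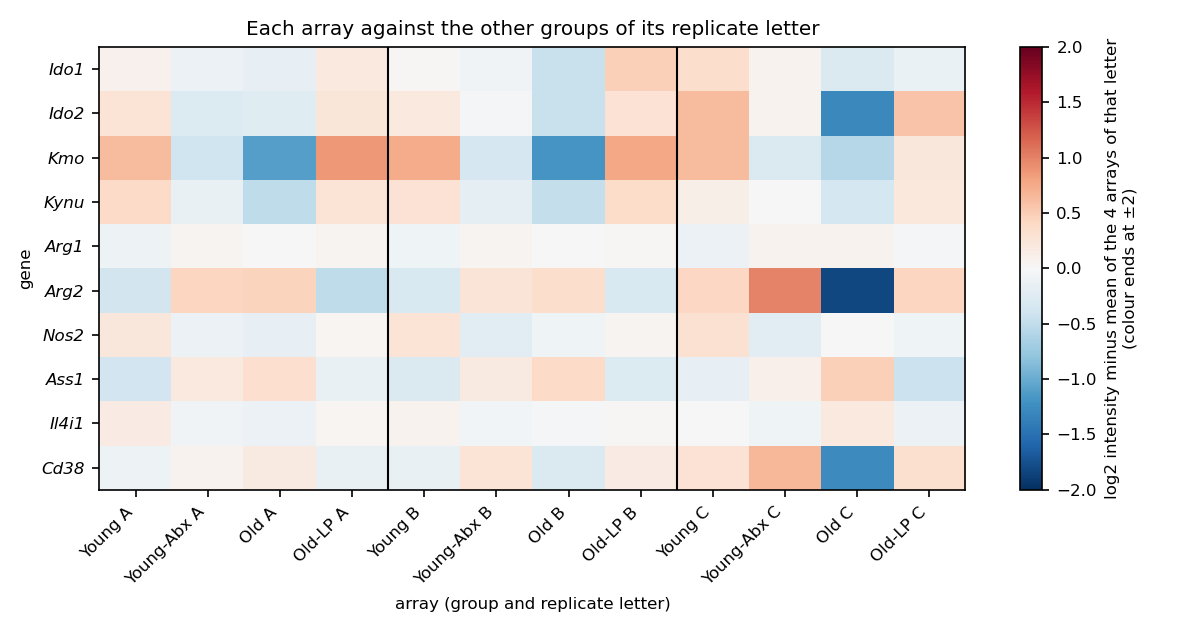
Log2 intensity of each gene (rows) on each array (columns, ordered by letter) after the mean of the 4 arrays of that letter was taken away, with red above and blue below that mean. *Kmo* and *Kynu* are blue on the 3 Old arrays (*Kmo* at -1.10, -1.18 and -0.57) and red on the Young and Old-LP arrays, *Ass1* has the opposite pattern, and array C of Old is blue for *Arg2* (-1.83), *Ido2* (-1.28) and *Cd38* (-1.27).

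With the mean of each letter taken away, the tryptophan enzymes varied together over the 12 arrays. Pearson's r was 0.960 between *Kmo* and *Kynu*, 0.811 between *Kmo* and *Ido1*, 0.758 between *Kynu* and *Ido1*, and 0.685 and 0.730 between *Ido2* and *Kmo* and *Kynu*. *Ass1* ran against them, at -0.877 with *Kmo* and -0.937 with *Kynu*. *Arg2* and *Cd38* formed another pair (r 0.893). With the letter mean taken away both were lowest on array C of Old (-1.83 and -1.27), and r without that array was not computed. The 12 arrays share groups and slides, so the values are a description and carry no p.

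By the same measure, and among 12885 named genes well above background on at least 9 arrays, *Clec12a* (r 0.991), *Ccl17* (0.991) and *Top2a* (0.988) were most like *Kmo*, and *Frmd5* (0.992), *Arhgap15* (0.989) and *Gbp5* (0.988) most like *Kynu*. *Peg13* (0.990), *Ache* (0.988) and *Atp2a3* (0.984) were most like *Ass1*. For *Ido1* the nearest were *Ifitm7* (0.949), *Fam241a* (0.948) and *Cks1b* (0.940), and for *Nos2* *Cdc14b* (0.963), *Dubr* (0.958) and *Acvrl1* (0.946). *Ido2* was nearest to *Shcbp1l* (0.993), *Csf2* (0.985) and *Rai14* (0.985), *Arg2* to *Spats2* (0.988), *Epm2aip1* (0.987) and *Napb* (0.986), and *Cd38* to *Cnot4* (0.988), *Prxl2c* (0.987) and *Ercc6* (0.981). *Arg1* was nearest to *Grk3* (0.950), *Hmgb3* (0.926) and *Ctbp2* (0.924), and *Il4i1* to *Cpt1c* (0.940), *F7* (0.940) and *Nhej1* (0.939). These are the highest of many values over few arrays, and no test was run on them. For *Ido2*, *Arg2* and *Cd38* array C of Old lay furthest from its letter mean (-1.28, -1.83 and -1.27). Their r values therefore depend most on that array.

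The remaining genes of the same pathways were read from lists. Of 16 other tryptophan and kynurenine genes 0 were called in Old against Young, Young-Abx against Young or Old-LP against Old, with or without a block (1, *Ddc*, at an unadjusted p in Old against Young). The median log2 difference of this list was 0.17 in Old against Young and -0.12 in Old-LP against Old, beside -0.40 and 0.35 over the 10 enzymes and 0.01 and -0.01 over all probes. The list medians changed sign between the letters, at -0.05 and 0.12 on A and B and 0.37 and -0.32 on C. Those of the 10 enzymes did not, at -0.28 and 0.14 on A and B and -0.55 and 0.36 on C. Of 28 other arginine, nitric oxide and polyamine genes with a probe, 1 was called in Old against Young, *Gchfr*. GCHFR is the feedback regulator of GTP cyclohydrolase, which makes the cofactor that NOS2 needs. *Gchfr* lay at 4.60, 4.50 and 5.23 in Young, 6.61, 6.35 and 7.28 in Young-Abx, 6.68, 6.84 and 7.42 in Old, and 4.68, 5.14 and 6.07 in Old-LP. The groups Old and Young-Abx did not overlap Young or Old-LP. The log2 difference was 2.20 in Old against Young (SE 0.41, adjusted p 0.0484). It was well above background on 2 of 3 arrays in Young and in Old-LP. With the letter as a block it also passed in Young-Abx against Young (1.97, adjusted p 0.00348), Old-LP against Old (-1.68, 0.00600) and Old-LP against Young-Abx (-1.45, 0.0194). The median of the arginine list was -0.0018 in Old against Young.

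Of 24 other NAD genes with a probe, 0 were called, with 3 at an unadjusted p in Old against Young. With the letter as a block 2 passed in Old against Young. *Nmnat1*, the nuclear enzyme that completes NAD, lay at 8.94, 8.86 and 8.20 in Young, 8.10, 8.13 and 7.77 in Young-Abx, 7.83, 7.66 and 7.39 in Old, and 8.82, 8.81 and 8.51 in Old-LP. It was lower in Old than in Young by a log2 difference of -1.04 (adjusted p 0.181, 0.00936 with the letter as a block) and higher in Old-LP than in Old by 1.08 (0.187, 0.0108 with the letter as a block). *Nt5e*, the ectoenzyme CD73 that makes adenosine from AMP, was higher in Old than in Young by 1.68 (adjusted p 0.10, 0.0259 with the letter as a block) and in Young-Abx than in Young by 2.02 (0.0588, 0.0201 with the letter as a block). Over these 68 pathway genes the letter block gave 3 calls in Old against Young, 2 in Young-Abx against Young, 2 in Old-LP against Old and 1 in Old-LP against Young-Abx, beside 2.18, 0.984, 1.65 and 0.588% of all probes. Of the 6 transporters of these amino acids and the 21 interferon, NF-κB and STAT regulators 0 were called without a block or with the letter as a block. At an unadjusted p, 1 transporter and 0 regulators passed in Old against Young.

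Genes from lists of LPS, interferon-γ and IL-4 response differed as well, although interferon-γ is not among the listed additions to the culture. The IL-4 list had a median log2 difference of -0.51 in Old against Young and 0.65 in Old-LP against Old. Those of the 10 enzymes were -0.40 and 0.35. The IL-4 medians changed sign between the letters, at -0.69 and 0.80 on A and B and 0.28 and -0.15 on C. The LPS and interferon-γ list gave -0.16 and 0.46 (-0.37 and 0.83 on A and B, 0.07 and -0.03 on C). Among 12 LPS and interferon-γ response genes with a probe, *Cxcl9*, a chemokine induced by interferon-γ, was called lower in Old than in Young and higher in Old-LP than in Old. It lay at 7.85, 7.64 and 9.34 in Young, 5.05, 4.93 and 7.53 in Young-Abx, 2.79, 2.56 and 3.12 in Old, and 7.43, 7.47 and 9.15 in Old-LP. In Young-Abx against Young *Cxcl9* passed with the letter as a block (-2.44, adjusted p 0.0280). *Cxcl9* was not well above background on any Old array, so the size of its difference is uncertain. Each Old array was therefore set to the dimmest signal that it measured well above background. *Cxcl9* was then 13.1-fold higher in Young than in Old and 11.0-fold higher in Old-LP than in Old. These are not strict lower bounds, since brighter probes such as *Ido2* at 6.61 on array C of Old were also not well above background. The adjusted p of 0.0109 and 0.0220 come from the fit to the measured values. With the letter as a block *Gbp5*, an interferon-inducible GTPase and 1 of the genes most like *Kynu*, passed as well (-1.33 in Old against Young, adjusted p 0.00657, and 1.27 in Old-LP against Old, 0.0109). Among 14 IL-4 response genes 0 were called without a block (3 at an unadjusted p in Old against Young). *Ccl17*, a chemokine that IL-4 induces and 1 of the genes most like *Kmo*, fell with the letter as a block in Old against Young (-1.22, adjusted p 0.0194) and rose in Old-LP against Old (1.30, 0.0189), where *Clec10a*, a lectin of DCs and macrophages, rose too (1.27, 0.0470).

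**Figure D4:**
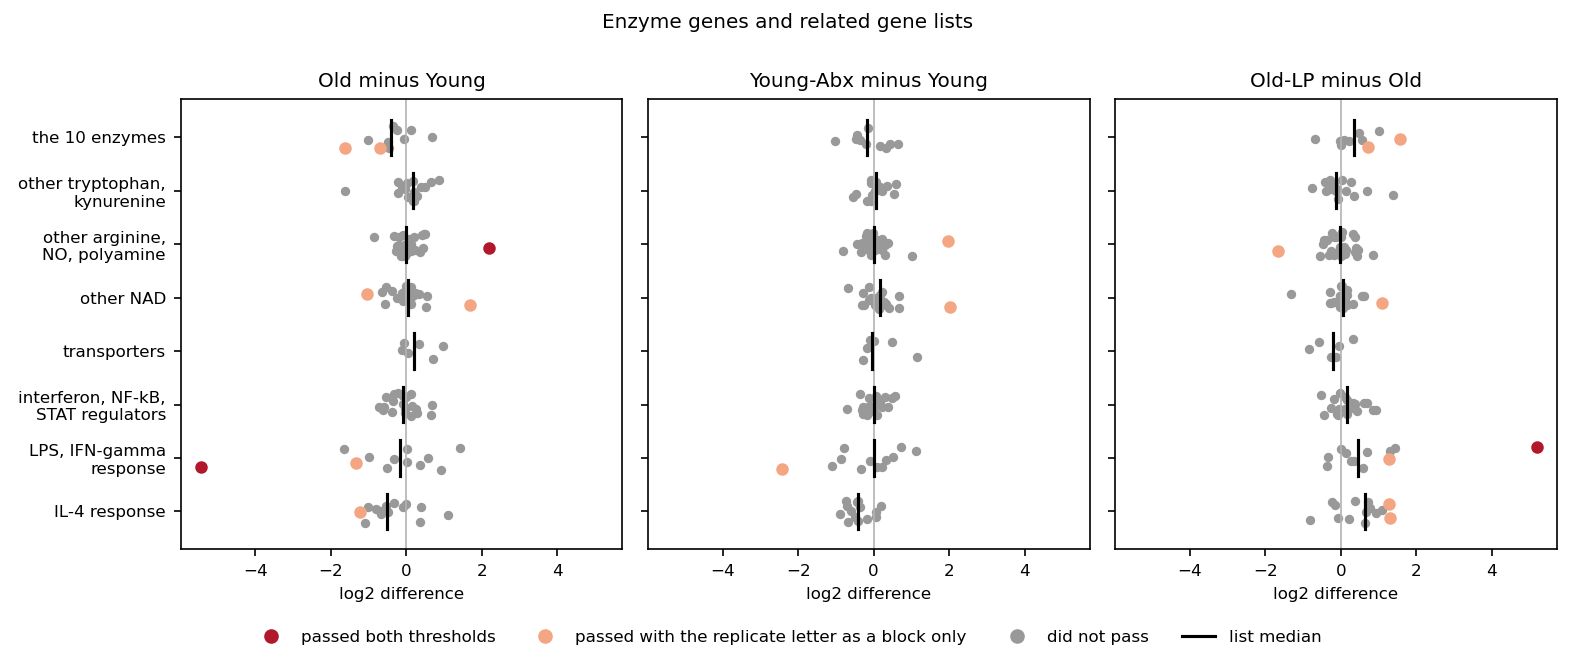
Log2 difference (horizontal axis) of every gene in the 10 enzymes and 7 related lists (vertical axis) in Old minus Young, Young-Abx minus Young and Old-LP minus Old. Dark red points passed both thresholds, pale points passed with the replicate letter as a block only, and black bars are list medians. The dark red points are *Gchfr* (2.20) and *Cxcl9* in Old minus Young and *Cxcl9* in Old-LP minus Old. *Cxcl9* is drawn at its measured difference, although it was not well above background on its Old arrays. With these set to their dimmest signal well above background the folds were 13.1 and 11.0.

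Markers of other cells moved with the same groups, some against *Kmo* and *Kynu* and some with them. Of 8 stromal markers, 4 were called higher in Old than in Young (*Col1a1*, *Col1a2*, *Dcn* and *Pdgfrb*), 3 higher in Young-Abx than in Young (*Col1a1*, *Col1a2* and *Dcn*) and 1 lower in Old-LP than in Old (*Dcn*). Their summed level (log2 of the summed intensities) was 7.01 to 7.78 in Young, 10.0 to 10.8 in Young-Abx, 10.2 to 11.6 in Old and 7.96 to 9.36 in Old-LP, and *Pdgfra* was not well above background on any array. Of the 8 stromal markers 1 was well above background on all 12 arrays, so the sizes of these differences rest in part on dim signals. Of 13 megakaryocyte and erythroid markers, 3 were called higher in Old than in Young (*Epor*, *Gp1ba* and *Gp9*) and 2 higher in Young-Abx than in Young (*Epor* and *Gp9*), and *Epor* was called lower in Old-LP than in Old and in Young-Abx. The summed level of this list was 16.1 to 16.3 in Young, 16.9 to 17.1 in Young-Abx, 16.9 to 17.1 in Old and 16.2 to 16.4 in Old-LP, and *Alas2* was not well above background on any array.

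The T cell and NK cell lists had their lowest median levels in Old, as *Kmo* and *Kynu* did. They were not alone in this. The neutrophil, mast cell and basophil, eosinophil and B cell lists described below also had their lowest median level in Old. So did the macrophage list, by little (17.75, beside 17.76 in Old-LP). The summed level of 7 T cell markers was 13.9 to 14.7 in Young, 13.7 to 14.6 in Young-Abx, 12.5 to 13.3 in Old and 13.8 to 14.3 in Old-LP, so that Old lay below every other group. Their median log2 difference was -1.10 in Old against Young (-0.70 on A and B, -1.89 on C) and 0.84 in Old-LP against Old (0.75 on A and B, 1.61 on C), with 0 of 7 called and 4 of 7 at an unadjusted p in each. *Cd3e*, a chain of the T cell receptor complex, gave -1.10 and 0.84 (adjusted p 0.294 and 0.665, or 0.0207 and 0.00756 with the slide as a block). The summed level of 6 NK cell markers was 14.3 to 15.3 in Young, 13.9 to 15.3 in Young-Abx, 13.3 to 14.5 in Old and 14.1 to 15.1 in Old-LP, with medians of -0.78 in Old against Young and 0.60 in Old-LP against Old. Of these 0 were called without a block, and with the letter as a block *Gzma*, a granzyme of cytotoxic cells, passed in both (-0.94, adjusted p 0.0187, and 0.79, adjusted p 0.0461).

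Lists of granulocytes and B cells differed between the letters. Of 11 neutrophil markers, 1 was called higher in Old and in Young-Abx than in Young, *Camp*, the cathelicidin of neutrophil granules (2.71, adjusted p 0.0208, and 2.47, adjusted p 0.0498). The median of the neutrophil list had the other sign, at -0.59 in Old against Young (-1.17 on A and B, 0.90 on C), and it was 1.00 in Old-LP against Old (1.46 on A and B, -0.68 on C). In Old against Young the eosinophil median was -1.50 on A and B and 0.35 on C, the mast cell and basophil median -0.63 and 0.38, and the B cell median -0.90 and 0.82, with 0 called in each list. The summed level of the DC markers, to which the brightest add most, was 18.3 to 18.8 over all groups. Their median in Old against Young was -0.25 on A and B and 0.39 on C. Of these 0 were called without a block, and 1 passed upward and 1 downward with the letter as a block. The median of 12 macrophage markers was 0.07 on A and B and 0.01 on C, with 0 called without a block. With the letter as a block 1 macrophage marker was lower in Old than in Young and 1 higher in Old-LP than in Old. The part of these cells in the values of *Kmo*, *Kynu* and *Ass1* was not tested.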

How the data were processed

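RNA of LPS-stimulated bone marrow-derived DCs was hybridised to 12 single-colour (Cy3) arrays. As deposited by the authors, the spot files hold intensity values, background-subtracted by Agilent Feature Extraction (12.1.1.1 in the file headers, 10.5 in the methods) and not normalized between arrays, and a table of log2 values for 46302 probes, which they quantile normalized with limma and which was used as an alternative. No authors' fold changes or p-values were used.

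Log2 of the intensity of 59305 spots that are not controls was quantile normalized, with 1068 outlier readings set to missing, and spots of a probe were averaged, which gave 56605 probes. Gene symbols came from a RefSeq table joined on the accession of each probe (35405 probes, 24232 genes). Its build is not the mm9 build of the array headers, so no gene coordinates were taken from it. R 4.3.3 with limma 3.58.1 (lmFit, eBayes, 1 mean per group, all 12 arrays) gave two-sided p-values, adjusted over all probes. The thresholds were those of the methods, 0.05 and 0.5. A single comparison of 3 arrays with 3 cannot go below an exact permutation p of 0.1, so none was run.

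Deviations from the group means correlated between same-lettered arrays of different groups (r 0.415 to 0.711), but as much between A and B (0.449 to 0.570), and negatively between C and A or B (-0.659 to -0.466). The letters in the sample titles were therefore used as a block and set C apart rather than pairing A with A. The alternatives were a shift by the 75th percentile, normexp background with an offset of 50, outlier spots kept, the log2 table, a filter to 25583 probes well above background, the letter or slide as a block, an intensity trend, the compared groups alone, averaged probes, each array left out, and slide 1 alone (added after the data were seen). Normexp was run on the median spot signal. Signal over background stands in for depth, and precision is limited by having 3 arrays a group.

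The genes, the related lists and the tests were chosen with earlier results of these data known. Members were named in full, genes of other lists where they were called, and for each member the 3 genes of highest correlation.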

Additional observations from a re-analysis of the deposited data

How the results depend on the processing

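All values of *Kmo* and *Kynu* in Old against Young and in Old-LP against Old kept their direction under every alternative run, with log2 differences of -2.25 to -1.19 and 1.21 to 2.20 for *Kmo* and of -0.80 to -0.62 and 0.68 to 0.79 for *Kynu*. The count of the 10 enzymes called, 0 in Old against Young and 0 in Old-LP against Old, became 1 in each with normexp background, 1 in each with the log2 table of the authors, 2 in each with the replicate block, 3 in each with the slide as a block and 4 in each on slide 1 alone, and it was 0 in both whichever array was left out. On slide 1 alone it became 3 in Young-Abx against Young and 2 in Old-LP against Young-Abx.

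Of the 68 other pathway genes, 1 was called in Old against Young. This became 0 with the 75th percentile shift, the intensity trend or the compared groups alone, 2 with normexp background, the log2 table or the filter on dim probes, 3 with the replicate block, 4 with the slide as a block, 10 on slide 1 alone, and 0 to 1 with an array left out. In Young-Abx against Young the count of 0 became 1 with normexp background, the log2 table, the filter or averaged probes, 2 with the replicate block, 3 with the slide as a block, 7 on slide 1 alone, and 0 to 1 with an array left out (1 without array C of Old). In Old-LP against Old the count of 0 became 2, 3 and 8 with the replicate block, the slide as a block and slide 1 alone, and in Old-LP against Young-Abx 1, 1 and 7. Both were 0 to 1 with an array left out, and 1 without array C of Old. Slide 1 alone called 8.74% of all probes in Old against Young and 5.72% in Young-Abx against Young. It called 7.77% in Old-LP against Old and 4.42% in Old-LP against Young-Abx. Calls over all probes also moved by over 1.5 times, from 351 in Old against Young to 1233 with the replicate block, 1528 with the slide as a block and 19 with the compared groups alone. Without 1 array it was 113 and 126 (Young A, B), 152 and 148 (Old A, B) and 590 (Old C). The 197 in Old-LP against Old became 26 to 109 without any A or B array and 416 without Old C, the 195 in Young-Abx against Young 58 to 80 without an array of either group other than Young C and 391 without Old C, and the 92 in Old-LP against Young-Abx 3 to 48 without any A or B array, 11 without Young-Abx C and 252 without Old C. The causes were not tested. The 75th percentile shift moved the median of all probes to 0.15 in Old against Young, and -0.12 in Old-LP against Old. The sign of *Arg2* in Old against Young was positive with normexp background (0.04), the log2 table (0.07) and the slide as a block (0.21), and in Old-LP against Old it was negative with the 75th percentile shift (-0.01) and the log2 table (-0.03). *Il4i1* turned positive in Old against Young with the 75th percentile shift (0.08), normexp (0.04) and the log2 table (0.04), and *Arg1* negative in Old-LP against Old with the shift (-0.14). Averaging both probes of *Ido2*, 1 of them dim, gave -0.60 in Old against Young. The dim C arrays limit what can be read for *Arg2* and *Ido2*.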
